A study of Mus musculus with 18 samples.

Results

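Y27 (Y27632, an inhibitor of the kinases ROCK1 and ROCK2) was compared directly with blebbistatin, an inhibitor of the ATPase of myosin II, by RNA sequencing of KDEL (control) cells on a rigid gel. The comparison used 6 of the 18 messenger RNA libraries of the series, 3 for each inhibitor, and no library of another group entered it. The labels of library 34, counted here with blebbistatin, conflict on the inhibitor and name an empty vector. When 3 libraries were set against 3, no gene differed between the inhibitors by 2-fold or more past a false discovery limit of 0.05 (Benjamini-Hochberg). Compared within their runs over all genes, they again gave 0 genes at that limit. When genes of very low signal were left out, a choice made after the data were seen, 11 genes passed it within runs, and 47 genes passed an adjusted p of 0.05 with no limit on the fold. Of these, 32 were higher with Y27, among them the angiopoietin receptor Tek, the receptor Erbb3, the lectin Clec3b, decorin (Dcn), type III collagen (Col3a1) and Txnip. The 15 that were lower with Y27 included Etv4, Csf1 and Adam22.

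The NIH 3T3 line derives from fibroblasts of mouse embryos and was used here as a Tet-ON line transduced with retrovirus. KDEL cells carry SS-GFP-KDEL, a GFP sent to the endoplasmic reticulum that serves as the control for a construct disrupting the link between nucleus and cytoskeleton. The labels give this construct for 5 of the 6 libraries, and library 34 is labelled a control with an empty vector. All 6 came from cells on fibronectin-coated polyacrylamide gels of 308 kPa, with 1 μg/ml doxycycline for 48 hr. The inhibitors were present for the same 48 hr, Y27 at 25 μM and blebbistatin at 10 μM, so the doses differed and each inhibitor was used at 1 dose only. Libraries 12, 24 and 36 were the Y27 group and libraries 10, 22 and 34 the blebbistatin group, named by the laboratory's serial numbers. Libraries 8, 20 and 32, from KDEL cells on 308 kPa without an inhibitor, are given beside them as a reference level and enter no test. A vehicle control is not given in the sources used here. The cells were sorted for GFP as a stable line. The study's methods call the 3 libraries of a condition biological replicates and do not say whether these were separate cultures, so p-values measure the spread between these libraries.

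The labels of library 34 conflict. Its characteristics name blebbistatin and its source name gives Y27, both give an empty vector in place of SS-GFP-KDEL, and the column matched to it is numbered 35. It was counted as blebbistatin, and counts, and the values it moves, are also given without it. The other 5 libraries carry labels that match each other. Signals summed to between 33950000 and 34880000 in the 6 libraries, from an estimated 15770000 to 19460000 read pairs. All 15 fibroblast markers were above the lowest value of 1 in every library. Of 22 markers of other cell types, 7 to 12 were above it, and the epithelial Epcam and Krt18, the macrophage Emr1, the muscle Myod1 and the neural Sox2 were at the lowest value in all 6. Other markers of such cells were detected in all 6, at 145 to 293 for the epithelial Cdh1, 107 to 266 for the macrophage Cd68, 181 to 414 for the muscle Des, 33.4 to 234 for the endothelial Cdh5 and 7.87 to 70.3 for Pecam1.

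ROCK is switched on by the small GTPase RhoA and raises contractile force by phosphorylating the myosin regulatory light chain and the myosin phosphatase subunit MYPT1. It also acts on LIM kinase, and through it on the actin-severing protein cofilin, so that it governs actin filaments as well as myosin. Blebbistatin blocks the myosin II motor itself and leaves the kinase alone. In fibroblasts both agents are known to dissolve stress fibres. Actin assembly and tension are in turn read by the transcription factor SRF with its MRTF cofactors, and by the YAP and TEAD proteins.

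Each gene has 1 normalized signal per library, and differences are given as log2 of (signal + 1), Y27 minus blebbistatin, so positive values are higher with Y27. Of 16021 genes tested with limma, 0 (0.00%) were called at an adjusted p under 0.05 and 2-fold, and the smallest adjusted p was 0.0748. At an unadjusted limma p under 0.05 stood 909 genes (5.67%), 500 higher with Y27 (3.12%) and 409 lower (2.55%). A z-test of proportions on summed signals, which leaves out the spread between libraries, called 289 genes. Without library 34 the counts were 0 called and 895 at an unadjusted p under 0.05. With library 34 counted among the Y27 libraries they were 3 and 892. The means were at least 2-fold apart for 311 genes (1.94%), 195 of them higher with Y27.

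The intervals show how closely the difference of single genes was bounded. Among the 8011 genes at or above the median signal of 599, the 95% interval of the difference had a median half-width of 0.285 on the log2 scale. For 7672 of them (95.8%) the whole interval lay within 2-fold in either direction. Differences smaller than a gene's half-width were not detectable in this comparison of 3 libraries against 3. When libraries were compared within runs, as described below, the median half-width was 0.224. For 98.4% of these genes the whole interval then lay within 2-fold.

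**Figure D1:**
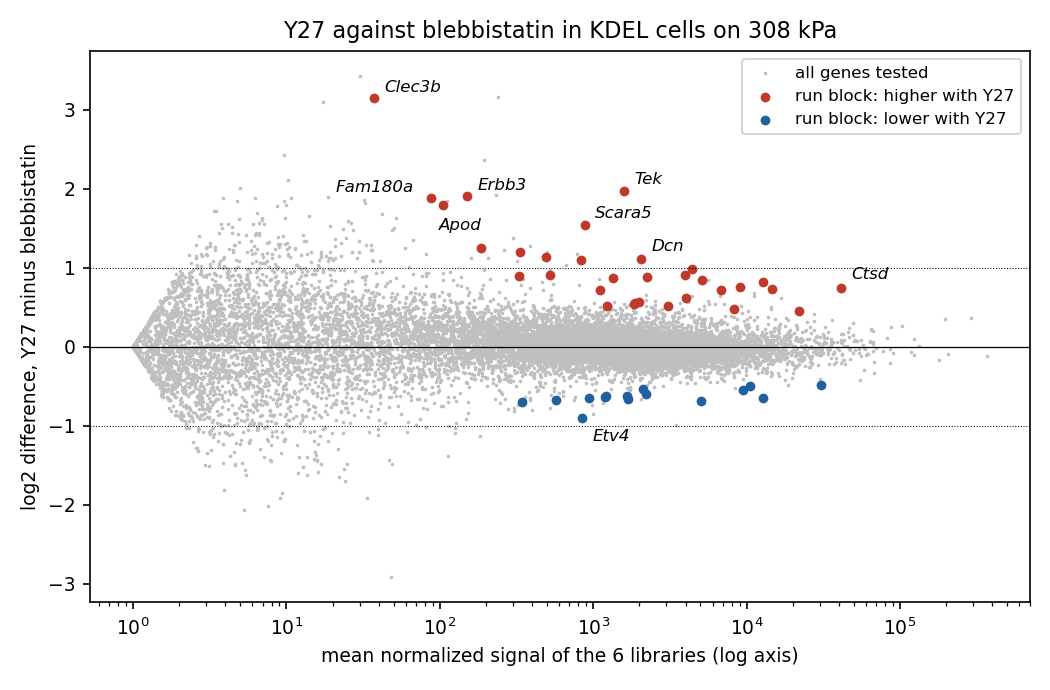
Each grey point is 1 of the 16021 genes tested, with the mean normalized signal of the 6 libraries on a log axis against the log2 difference, Y27 minus blebbistatin. Red and blue points are the 32 and 15 genes past an adjusted p of 0.05 in the comparison within runs. That comparison took only genes with a mean signal of at least 10, and dotted lines mark 2-fold. Red points reach further from 0 than blue ones, and genes of low signal, at the left, scatter widely.

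The serial numbers fall into 3 runs, each with 1 library of every group, and libraries of a run resembled each other across the inhibitors. Deviations from the group means correlated within runs at 0.375 for libraries 10 and 12, 0.14 for 22 and 24 and 0.313 for 34 and 36, over all tested genes. Between runs the values lay from -0.315 to 0.0215. Deviations within a group cancel out, so positive values within runs force negative ones on average between runs. What a run number stands for is not given in the sources used here. Values given without library 34 alone keep library 36, so differences between runs enter them together with the inhibitor. With the run as a block, 1451 genes (9.06%) stood at an unadjusted p under 0.05, against 909 without it, 809 higher with Y27 (5.05%) and 642 lower (4.01%). None of them passed an adjusted p of 0.05 with a 2-fold difference over all 16021 genes.

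Among the 12366 genes with a mean signal of at least 10, a choice made after the data were seen, 1809 (14.6%) stood at an unadjusted p under 0.05 with the block. It called 11 genes (0.0890%), and all 11 were higher with Y27. An adjusted p under 0.05 alone was met by 47 genes (0.380%), 32 higher with Y27 (0.259%) and 15 lower (0.121%). Every one of the 47 had the same direction in all 3 runs. The groups did not overlap for 16 of the 32, against 5.39% of all genes tested, and for 4 of the 15, against 4.24%, but the test that chose them used the same values. Without the run block and over all 16021 genes the same genes had adjusted p-values between 0.459 and 0.892, so both the block and the filter differed. These genes are named because of the test with the block and a mean of at least 10, after their values were seen. Adjusted p-values given below for single genes of the 47 are from that test. Over all 16021 genes the block called 0. The count rests on the runs used. With the run of libraries 10 and 12 left out 6 genes were called, without 22 and 24 it was 4, and without 34 and 36 it was 33, of which 26 were higher with Y27.

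Several of the 47 encode receptors at the cell surface. Tek, the receptor tyrosine kinase for angiopoietins, had signals of 1489, 551 and 157 in blebbistatin libraries 10, 22 and 34 and 3928, 2589 and 779 in Y27 libraries 12, 24 and 36. Within the 3 runs it was 2.64, 4.7 and 4.95-fold higher with Y27. The groups overlapped, because in both the first run was highest and the third lowest, and library 10 exceeded library 36. The log2 difference was 1.98 ± 0.15 (SE with the run block, limma adjusted p = 0.000481 among genes with a mean of at least 10). Without library 34 it was 1.14 in a fit with no run block, which kept library 36, the lowest of the Y27 group. Erbb3, a receptor for neuregulins, stood at 48.4, 44.4 and 95.1 with blebbistatin and 146, 344 and 225 with Y27, in the same order of libraries. Here the groups did not overlap, and the log2 difference was 1.91 ± 0.28 (adjusted p = 0.021). Scara5, a scavenger receptor that binds ferritin, had 223, 397 and 741 with blebbistatin and 637, 2058 and 1245 with Y27. Its groups overlapped, since library 34 exceeded library 12, while each Y27 library exceeded the blebbistatin library of its run by 2.86, 5.18 and 1.68-fold.

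Secreted proteins formed the next group. Clec3b encodes tetranectin, a plasminogen-binding lectin. Its signal was 5.96, 6.12 and 5.53 in the blebbistatin libraries and 108, 69.5 and 28.2 in the Y27 libraries, with a log2 difference of 3.15 ± 0.45 (adjusted p = 0.0203). The blebbistatin libraries lay close together and all below every Y27 library, at a level that rests on few read pairs, since 1 pair was worth 1.76 to 2.21 signal units. Apod, which encodes the lipid carrier apolipoprotein D, gave 98.9, 32.3 and 13.3 with blebbistatin and 317, 122 and 49.5 with Y27, and its groups overlapped. Spon2, an extracellular spondin, gave 506, 375 and 747 with blebbistatin and 1019, 1269 and 1079 with Y27, with no overlap. Fam180a gave 33.8, 38.3 and 28.8 and 84.1, 244 and 96.8, again without overlap.

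Matrix genes were among the most abundant of the 47. Col3a1, the chain of type III collagen, had 10645, 5054 and 4486 with blebbistatin and 18434, 8967 and 7109 with Y27. It was 1.73, 1.77 and 1.58-fold higher within the 3 runs, and its log2 difference of 0.76 ± 0.08 had an adjusted p of 0.0039. Library 10 of the blebbistatin group nevertheless exceeded Y27 libraries 24 and 36, so the groups overlapped. Dcn, which encodes the collagen-binding proteoglycan decorin, had 2983, 691 and 595 with blebbistatin and 4881, 1717 and 1458 with Y27, and overlapped in the same way. Its log2 difference was 1.10 ± 0.12 (adjusted p = 0.00447). Prelp, a related leucine-rich matrix protein, gave 4561, 3916 and 2529.8 and 5892, 8701 and 5123 without overlap. Fbn1, the microfibril protein fibrillin 1, differed by only 0.45 ± 0.08 at high signal, from 21500, 17295 and 16647 to 30322, 25810 and 20135, and library 36 lay below library 10. Ecm1 and Sned1, both secreted matrix proteins, were also higher with Y27.

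Txnip, which binds thioredoxin and restrains glucose uptake, was 257, 162 and 191 with blebbistatin and 546, 385 and 458 with Y27. All 3 Y27 libraries lay above all blebbistatin libraries, with 2.12, 2.38 and 2.4-fold within runs and a log2 difference of 1.20 ± 0.13 (adjusted p = 0.00447). Without an inhibitor it was 1233, 397 and 338, and so spanned the Y27 level. Aldh3a1, an aldehyde dehydrogenase, had 159, 81.4 and 87.8 with blebbistatin and 322, 158 and 307 with Y27, where library 24 lay just under library 10. Cyp26b1, which degrades retinoic acid, was 1.5, 2.16 and 2.05-fold higher with Y27 within runs. The lysosomal protease Ctsd was among the highest of the 47 in signal, at 31450, 32165 and 26295 with blebbistatin and 46011, 73551 and 37038 with Y27, and its groups did not overlap.

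The surface proteins Ly6a and Ly6c1 were higher with Y27, at log2 differences of 0.73 ± 0.11 and 0.88 ± 0.14. Both belong to a family of similar genes, between which the counting could have split reads. The transcription factors Ebf1, Tcf7l1 and Zfp521 were higher by 0.51, 0.51 and 0.57. Csrp2, a LIM protein of the cytoskeleton, was higher by 0.72 and Gas7, an actin-binding protein, by 0.82. The remaining genes of the 32 were Lrrn4cl, Clec2d, Shpk, Faah, Adam15, Cyp2j6, Selm and Steap3, with log2 differences from 0.47 for Steap3 to 1.14 for Lrrn4cl.

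**Figure D2:**
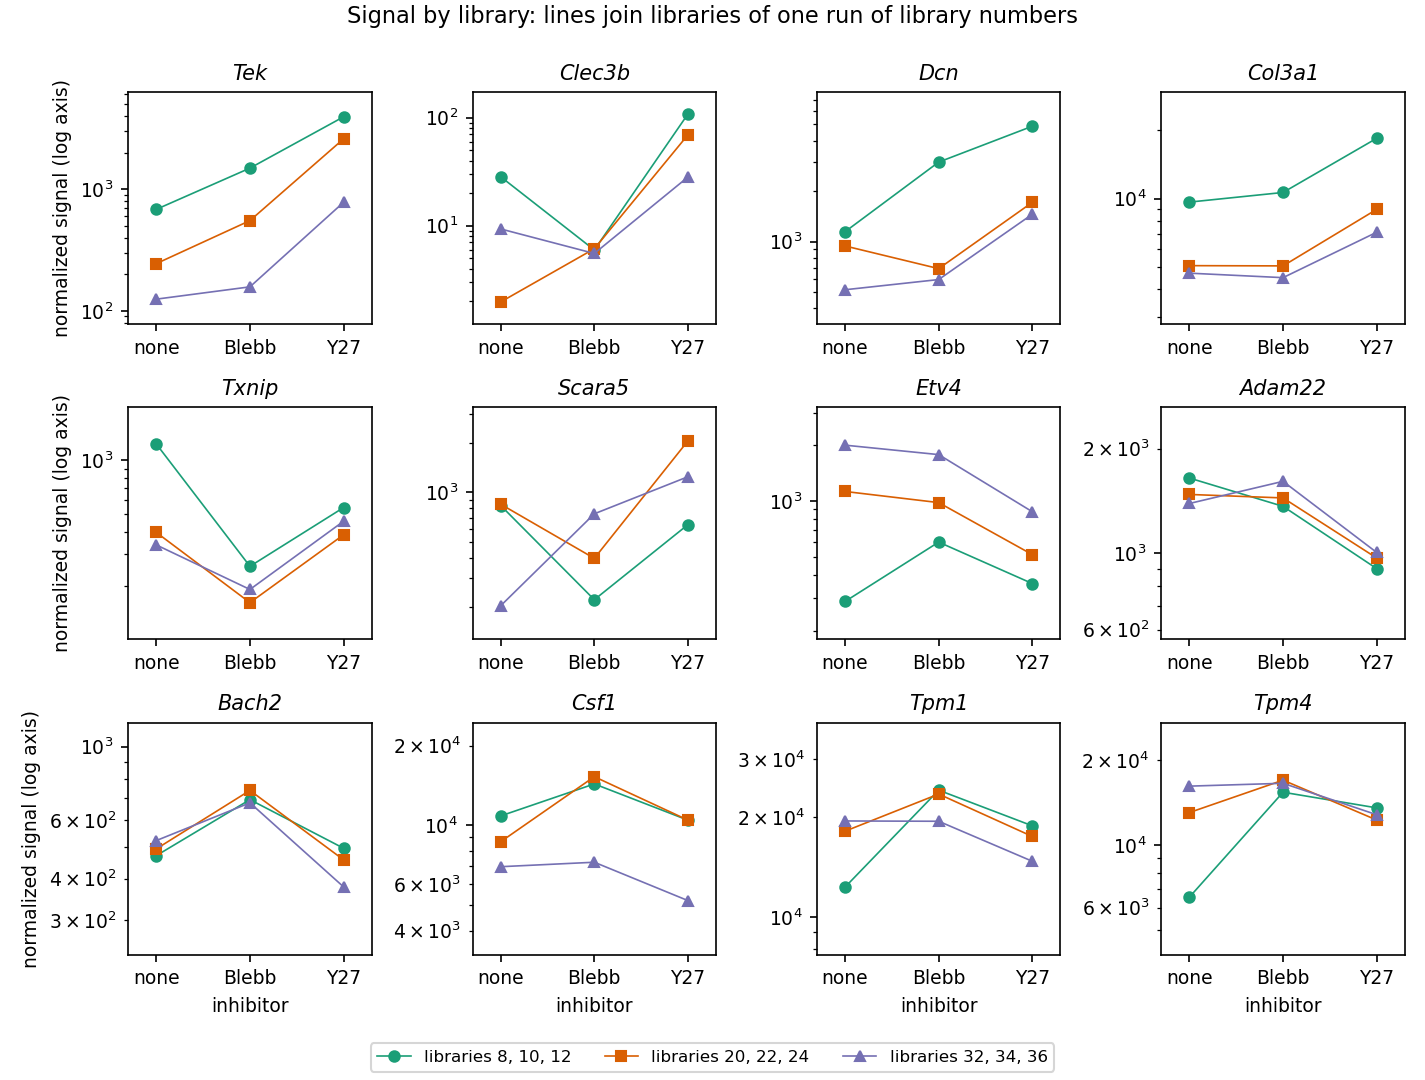
Normalized signal on log axes of 12 genes in KDEL cells on 308 kPa with no inhibitor, blebbistatin (Blebb) or Y27, 1 point per library. Lines join libraries of 1 run, and for the first 6 genes the Y27 point lies above the blebbistatin point in every run, while for the last 6 it lies below.

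Lower with Y27 was Adam22, a membrane protein of the ADAM family. It had 1362, 1440.1 and 1608 with blebbistatin and 900.5, 966 and 1003 with Y27. The spread within each group was small, the groups did not overlap, and the log2 difference was -0.62 ± 0.09 with the run block (adjusted p = 0.021). The untreated libraries, at 1644, 1474 and 1388, overlapped with the blebbistatin group and lay above the Y27 group. Etv4, a transcription factor of the ETS family, had 599.9, 980.0 and 1779 with blebbistatin and 359, 514 and 875 with Y27. In each group it was lowest in the first run and highest in the third, the groups overlapped, and the log2 difference was -0.90 ± 0.11 (adjusted p = 0.00654).

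Csf1, the growth factor of macrophages, had 14322, 15252 and 7249 with blebbistatin and 10451, 10454 and 5193 with Y27. Libraries 34 and 36 were the lowest of their groups, so the groups overlapped, and the log2 difference was -0.49 ± 0.07 (adjusted p = 0.021).

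Rnd1, a small GTPase that opposes RhoA, was lower with Y27 by -0.65 ± 0.10 on the log2 scale, from 766, 1127 and 1541 to 481, 777 and 919, with overlapping groups. Dock8, an activator of the GTPase Cdc42, differed by -0.64 ± 0.11, but its signal varied between runs more than between inhibitors. Bach2, a transcriptional repressor, had 692, 738 and 677 with blebbistatin and 494, 456 and 378 with Y27. Its groups did not overlap, nor did those of the kinase Lrrk2 (-0.66) and the adhesion molecule Alcam (-0.63). The integrin ligand Npnt, the netrin receptor Unc5b, the natriuretic peptide receptor Npr3, the transmembrane protein Crim1 and the mitochondrial enzyme Lars2 were also lower, at -0.70, -0.60, -0.54, -0.54 and -0.48.

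The untreated libraries were not used to find these genes, but choosing genes that are high with Y27 itself favours an untreated level below them. Of the 32 genes higher with Y27, the untreated mean was below the Y27 mean for 31, between both inhibitors for 11 and below both for 20. The background was all 6388 genes with a mean of at least 10 and a positive difference of any size. Their untreated mean was below the Y27 mean for 66.7% and below both for 41.0%. Tek, for example, had 682, 244 and 125 without inhibitor, less than either inhibitor in every run. Of the 15 genes lower with Y27, the untreated mean was above the Y27 mean for 12, and for 5 of these also above the blebbistatin mean. Of all 5978 such genes with a negative difference of any size, these shares were 63.2% and 37.8%. Neither background was matched to the named genes in the size of the difference, so the shares are not a like comparison. Differences from the untreated group were not tested for these genes.

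Genes of at least median signal with the smallest limma p in the comparison of 3 against 3, whose groups did not overlap, differed by less than 2-fold, and none was called. First on the Y27 side was Upf3b, a factor of nonsense-mediated decay, with 1012, 1034 and 1036 with blebbistatin and 1296, 1371 and 1409 with Y27. Its log2 difference was 0.40 ± 0.05 (limma adjusted p = 0.376). Lgr4, a receptor for R-spondins, followed with 0.38 ± 0.06 and an adjusted p of 0.636. The other 8 were Dbi, Zcchc24, Cyp2j6, Snx10, Gmppa, Anks3, Tbc1d10a and Gpr137, at log2 differences from 0.21 (Zcchc24) to 0.56 (Cyp2j6).

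First on the blebbistatin side was the kinase Rps6ka2 (RSK3), with 1508, 1462 and 1442 with blebbistatin and 1107, 1057 and 1116 with Y27. The 3 libraries of each group lay within a narrow band, and the log2 difference was -0.43 ± 0.05 (limma adjusted p = 0.272). Fez2 followed Adam22 at -0.45 ± 0.06. Tropomyosin 4 (Tpm4), which winds along actin filaments, had 15420, 17017 and 16588 with blebbistatin and 13570, 12288 and 12831 with Y27, with a log2 difference of -0.34 ± 0.07 (adjusted p = 0.804). Spire1, a nucleator of actin filaments, differed by -0.55 ± 0.12. The others were Rassf8, Ddah1, Mid2, Wdfy4 and Trim44, from -0.38 for Wdfy4 to -0.21 for Trim44.

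The targets of the inhibitors differed little in mRNA. Myh9, the heavy chain of myosin IIA and the most abundant myosin II gene by signal, had 72842, 73364 and 69563 with blebbistatin and 63880, 66091 and 59023 with Y27. All Y27 libraries lay below all blebbistatin libraries, with a log2 difference of -0.19 and a 95% interval from -0.46 to 0.07 (adjusted p = 0.806). Myh10, of myosin IIB, had 11387, 12164 and 13269 and 10266, 9715 and 11725, overlapping at library 36, with an interval from -0.47 to 0.03. The regulatory light chains Myl12a and Myl12b differed by -0.14 and -0.12, without overlap, although reads of these near-identical copies could have been split between them. The essential light chain Myl6 differed by 0.08, with an interval from -0.08 to 0.24. Myh14 was at 115, 142 and 147 with blebbistatin and 135, 151 and 159.9 with Y27, Myl6b at 188, 212 and 242 and 119.6, 222 and 239.9, Myh11 under 10 in all 6 libraries, and Myl9 at the lowest value in all 6. None of the 9 genes was called.

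Rock1 had 3189, 3306 and 3483 with blebbistatin and 3376, 3315 and 3749.7 with Y27, an overlap, with an interval of the log2 difference from -0.11 to 0.23. Rock2 had 13122, 13944 and 13839 and 12971, 11271 and 12593, with no overlap and an interval from -0.34 to 0.03 (adjusted p = 0.804). Rhoa differed by 0.02, with an interval from -0.28 to 0.31, Rhoc by 0.13 and Rhob by 0.25. Rhob was the most variable of these, at 10363, 15928 and 7874 in the Y27 libraries. Of 34 genes of the ROCK pathway 15 were higher with Y27 and 19 lower, with a median of -0.09 (-0.09 to -0.05 with 1 library left out), beside 0.00 over all genes. Mylk, the myosin light chain kinase, had 137, 136 and 139 with blebbistatin and 84.1, 86.2 and 93.1 with Y27, with a log2 difference of -0.64 ± 0.12 (adjusted p = 0.804). Rnd2, a related GTPase, had 692, 731 and 689 and 811, 882 and 947 and differed by 0.32 ± 0.08. Neither overlapped between the groups, and neither passed the adjusted limit.

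**Figure D3:**
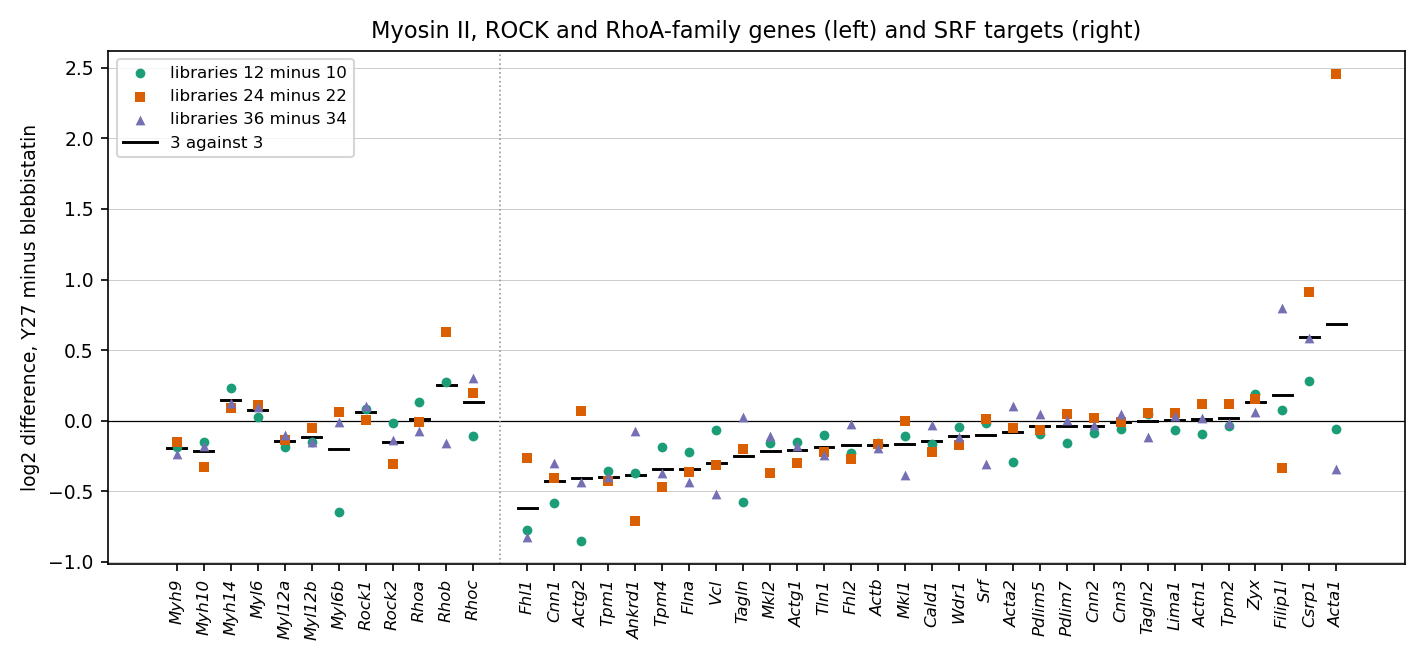
Log2 difference, Y27 minus blebbistatin, within each of the 3 runs (coloured points) and over all libraries (black bars), for 12 myosin II, ROCK and RhoA-family genes on the left and 31 SRF targets on the right in order of their difference. Most points of the SRF targets lie below 0, and the bars run from -0.62 for Fhl1 to 0.69 for Acta1.

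SRF targets, mostly actins and actin-binding proteins, were lower with Y27 for 24 of 31 genes tested. Over all genes tested, 47.2% were lower with Y27 and 50.5% higher. Their median was -0.14, between -0.19 without library 24 and -0.06 without library 22, and -0.11, -0.16 and -0.11 within the 3 runs, beside 0.00 over all genes. In all 3 runs 15 of the 31 were lower, against 14.4% of all genes and 19.8% of those at or above the median signal. The groups did not overlap, with Y27 lower, for 6, against 4.24% of all genes. Among the 8011 genes at or above the median signal this held for 441. At an unadjusted limma p under 0.05 were 4 lower, against 2.55%, and 1 higher, and none was called. Tpm1, named after its values were seen, had 24159, 23515 and 19457 with blebbistatin and 18850, 17506 and 14728 with Y27. Vcl (vinculin, which ties actin to focal adhesions) had 13057, 14877 and 16398 and 12476, 11983 and 11429, without overlap, at a log2 difference of -0.30 ± 0.10 (adjusted p = 0.804). Flna, the crosslinker filamin A, had 72307, 82740 and 70803 and 62166, 64460 and 52322, again without overlap.

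The actins given in this paragraph were lower with Y27 on average, while Acta1 was higher at 0.69 and varied widely between libraries. Actg1 had 88970, 94941 and 91923 with blebbistatin and 80275, 77114 and 81290 with Y27, with no overlap and a difference of -0.21 ± 0.11 (adjusted p = 0.806). Actb had 171320, 194450 and 207510 and 153940, 173610 and 181960, overlapping, with a difference of -0.17 ± 0.20. Their coding sequences are close, so reads could have been shared. The muscle actins Acta2 and Actg2, named after their values were seen, differed by -0.08 ± 0.31 and -0.40 ± 0.57. Mkl2, an MRTF cofactor of SRF, was lower by -0.21 ± 0.07. Csrp1, a LIM protein that binds actin filaments, was higher, from 1663, 1623 and 1935 to 2023, 3059.6 and 2908, at 0.59 ± 0.18 (adjusted p = 0.804).

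Promoters of SRF targets are shown because SRF binds a known element, the CArG box, and most members were lower with Y27. In RefSeq sequences (GRCm38.p6) the 250 bases before the gene start held a CArG box on either strand in 10 of 27 matched genes (37.0%), against 439 of 27025 genes (1.62%). The list names known SRF targets, so a high share follows from its choice and says nothing about the inhibitors. The windows below are printed 5′ to 3′ on the strand of the gene with the box in capitals. They belong to Actg1 (chr11:120348551-120348610, minus strand), Vcl (chr14:20929148-20929205, plus strand), Srf (chr17:46556190-46556269, minus strand, 2 boxes) and Fhl1 (chrX:56779556-56779615, plus strand).
Actg1: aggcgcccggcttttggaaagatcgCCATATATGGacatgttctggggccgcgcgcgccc
Vcl: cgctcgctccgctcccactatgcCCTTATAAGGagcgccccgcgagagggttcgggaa
Srf: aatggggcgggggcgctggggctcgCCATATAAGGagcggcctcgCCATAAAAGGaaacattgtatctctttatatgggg
Fhl1: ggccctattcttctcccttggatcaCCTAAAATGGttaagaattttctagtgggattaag
A match of letters is a description and shows no binding. Among the genes printed, Srf itself differed by -0.10 ± 0.14 and Fhl1, a LIM protein, by -0.62 ± 0.42. Srf, Fhl1 and the genes that follow are named after their values were seen. The genes printed were all lower with Y27. Genes with a box also include Fhl2, at -0.17, Cnn2, at -0.03, Lima1, at 0.01, and Filip1l, at 0.18. Another is Acta1, which was higher with Y27 at 0.69 ± 1.20 and varied widely between libraries.

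YAP targets were lower with Y27 for 18 of 22 genes, against 47.2% of all genes. Their median was -0.16, between -0.26 without library 34 and -0.12 without library 22, and -0.10, -0.16 and -0.15 within runs. Of the 22, 11 were lower in all 3 runs, against 14.4% of all genes and 19.8% of those at or above the median signal. Arhgef17, an exchange factor for RhoA, had 4455, 4248 and 4009 with blebbistatin and 3872, 3460.5 and 3304 with Y27, without overlap and at -0.26 ± 0.08. Amotl1, which binds YAP, had 4262, 4964 and 4248 and 3792, 4075 and 3684, and the groups did not overlap. The receptor kinase Axl had 36710, 38948 and 44017 and 34924, 33521 and 33864, again apart. None was called, and Crim1 alone of the list passed the adjusted limit with the run block among genes with a mean of at least 10. Amotl2, the highest of the list in signal, differed by 0.07 ± 0.25.

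Focal adhesion adaptors were lower for 17 of 26 genes, against 47.2% of all genes. In all 3 runs 13 of the 26 were lower, against 14.4% of all genes and 19.8% of those at or above the median signal. Their median was -0.08, but -0.0038 without library 36 and -0.04 without library 22. Talin 1 (Tln1), which links integrins to actin, had 13143, 13023 and 11650 with blebbistatin and 12262, 11161 and 9865 with Y27, with an overlap. Integrins were split, 9 higher and 11 lower of 20, with a median of -0.01. It was 0.10 without library 34, 0.19 without library 12 and 0.18 with library 34 counted as Y27. Itgav had 8067, 9374 and 7428 and 7240.2, 6883 and 6011, without overlap and at -0.30 ± 0.12. Itga4 had the smallest p of the list but signals of at most 10.8 in the 6 libraries, a level of few read pairs. Other myosins were lower for 14 of 19, median -0.18 (-0.17 to -0.09 with 1 library left out, the latter without library 34). Myo10, the motor of filopodia, had 13656, 13445 and 12218 with blebbistatin and 11719, 11877 and 9882 with Y27, without overlap, at -0.24 ± 0.10.

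Matrix genes mostly went the other way. Collagens were higher with Y27 for 20 of 23 genes, against 50.5% of all genes. Their median was 0.17, between 0.10 without library 34 and 0.32 without library 10. Within runs the medians were -0.05, 0.36 and 0.18, so the first run did not share the direction. Type VI collagen had the smallest p-values. Col6a1 had 13115, 11684 and 14588 with blebbistatin and 17298, 25140 and 18382 with Y27, at 0.61 ± 0.17 (adjusted p = 0.804), and Col6a2 had 8747, 8229.5 and 8984 and 11326, 17888 and 12286, at 0.65 ± 0.19. In both genes the groups did not overlap. Col1a1 and Col1a2, the chains of type I collagen, differed by 0.27 ± 0.19 and 0.35 ± 0.24, while Col5a2 was lower with Y27 in every run, at -0.30 ± 0.24.

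Matrix glycoproteins were higher for 25 of 34 genes, median 0.16, but -0.02 without library 34, 0.29 without library 10 and -0.02 in the first run. With libraries 34 and 36 both left out the median was 0.12. Mgp, an inhibitor of calcification, had 765, 430.5 and 297 with blebbistatin and 874, 988 and 1318 with Y27, without overlap and at 1.18 ± 0.38. Wisp1, a matricellular protein, was lower with Y27, from 2160.0, 1901 and 2104 to 1598, 1309.5 and 1694, at -0.43 ± 0.12 (adjusted p = 0.804). Fibronectin (Fn1) had 340090, 307580 and 135350 and 355690, 374810 and 226780, which overlapped, at 0.36 ± 0.49 and -0.05 without library 34. Within every run the Y27 library was nevertheless the higher. Matrix proteases and their inhibitors had a median of 0.17 (-0.06 without library 34, but 0.11 without libraries 34 and 36). Lysyl oxidases and collagen-modifying enzymes had 0.06 (-0.05 without library 24). All 15 fibroblast markers were higher with Y27 (median 0.26, and 0.14 without library 34). In every run 9 of them were higher, against 17.2% of all genes and 20.2% of those at or above the median signal. Of 16 tested markers of other cell types 11 were also higher, with a median of 0.17, between -0.04 without library 36 and 0.32 without library 12, and 1 was higher in every run. The summed signal of the latter list was 651, 715 and 912 with blebbistatin and 701, 1065 and 1139 with Y27, and its part in these results was not tested. None of these genes was called in the comparison of 3 against 3. In bulk samples a change in the share of cells and in RNA per cell cannot be told apart.

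**Figure D4:**
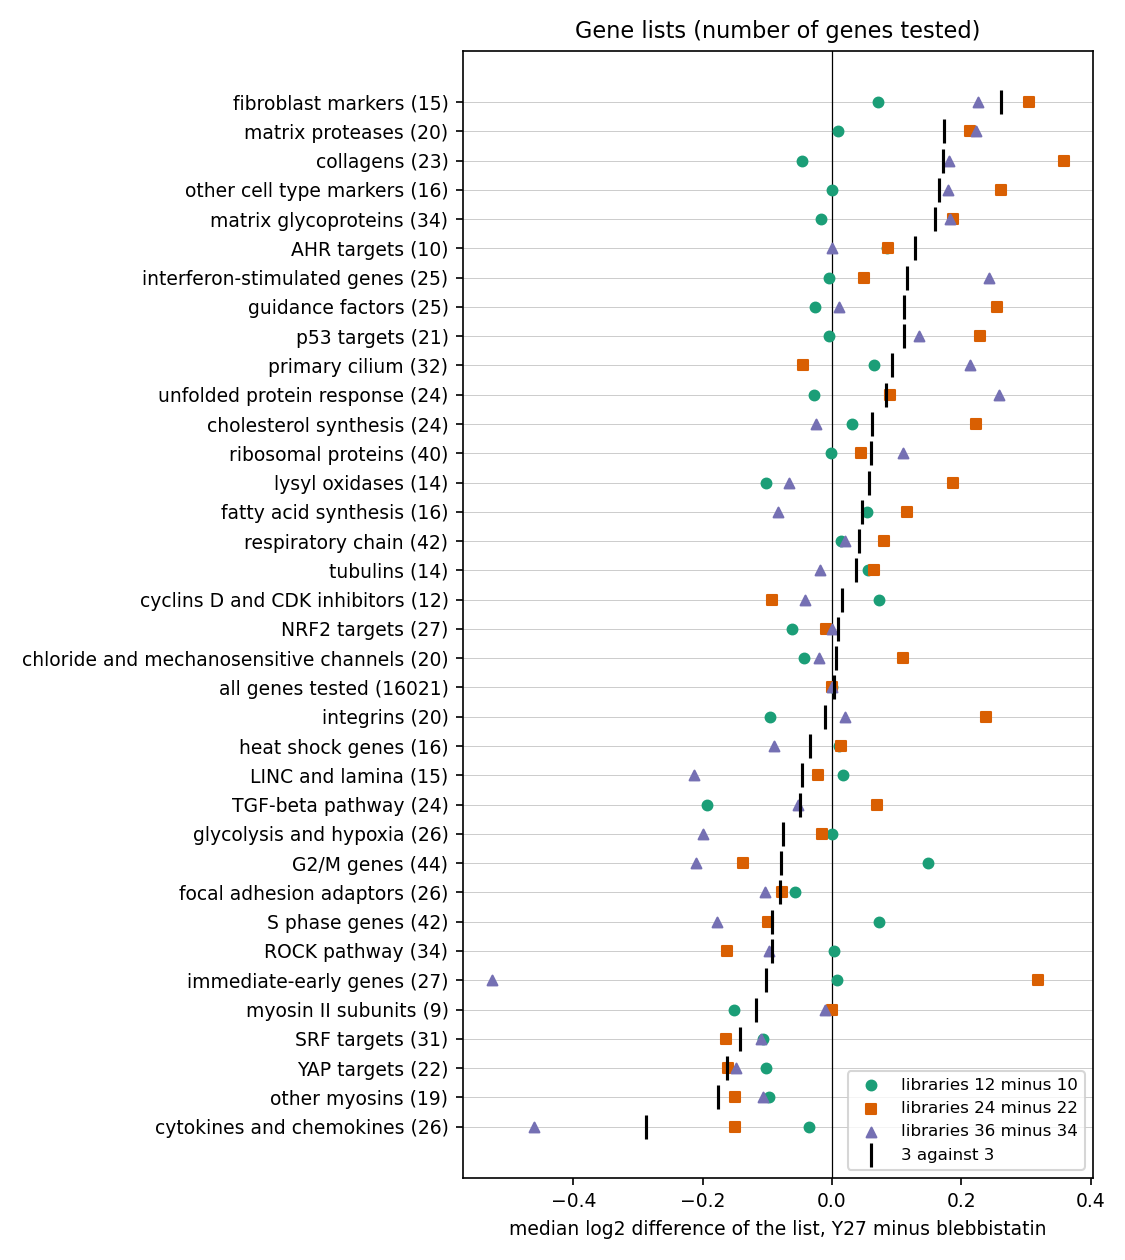
Median log2 difference, Y27 minus blebbistatin, of each gene list with the number of genes tested in brackets, within each run (coloured points) and over all 6 libraries (black bars). Cytokines, other myosins, YAP targets and SRF targets lie below 0 in all 3 runs, while collagens, immediate-early, G2/M and S phase genes change side between runs.

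Signalling lists differed in part with the run. Of 24 genes of the TGF-β pathway 16 were lower with Y27. Their median was -0.05, but -0.12 without library 34 and 0.03 without library 12. Smad3, which carries the signal to the nucleus, had 1616, 2072 and 1989.8 with blebbistatin and 1416, 1386 and 1442 with Y27, at -0.41 ± 0.10 (adjusted p = 0.804). Skil, a repressor of SMADs and itself induced by TGF-β, had 1904, 2359 and 1777 and 1216, 1351 and 1601, at -0.53 ± 0.15. The groups of both genes did not overlap. Cytokines and chemokines were lower for 19 of 26 genes, median -0.29 (-0.40 without library 12, -0.18 without library 36), and -0.04, -0.15 and -0.46 within runs. Lif, a cytokine of the IL-6 family, was lower in every run, at 1538, 859 and 1026 with blebbistatin and 1114, 693 and 661 with Y27. Immediate-early genes had medians of 0.01, 0.32 and -0.53 in the 3 runs, with no shared direction. Maff, a basic leucine zipper factor of that list, had 883, 879 and 980.2 and 576, 692 and 469, without overlap and at -0.67 ± 0.16.

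NRF2 targets, which answer oxidative stress, were split, 15 higher with Y27 and 12 lower of 27. Their median was 0.01, between -0.07 without library 34 and 0.10 without library 36. At an unadjusted limma p under 0.05 were 4 lower (2.55% of all genes) and 2 higher (3.12%). The groups did not overlap for 5 lower genes, against 4.24% of all genes, and 4 higher, against 5.39%. The higher genes included Ephx1, an epoxide hydrolase, and Tkt, transketolase, at 0.35 ± 0.11 and 0.14 ± 0.05, both named after their values were seen. The 4 genes with the smallest p were lower. Txnrd1, thioredoxin reductase, had 16637, 19257 and 18948 with blebbistatin and 15184, 13722 and 13444 with Y27, at -0.37 ± 0.09 (adjusted p = 0.804). Slc7a11, the cystine transporter, Gclc, which makes glutathione, and Srxn1, sulfiredoxin, differed by -0.35, -0.31 and -0.29. In these 4 genes every Y27 library lay below every blebbistatin library. The ferritin genes Fth1 and Ftl1 differed by 0.01 ± 0.19 and 0.03 ± 0.11.

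Proliferation genes were mostly lower with Y27, but the runs did not share a direction. G2/M genes were lower for 34 of 44 and S phase genes for 35 of 42, against 47.2% of all genes. In all 3 runs 2 and 8 of them were lower, against 14.4% of all genes. G2/M genes had a median of -0.08, but 0.06 without library 34, -0.24 without library 10 and 0.15, -0.14 and -0.21 within runs. S phase genes gave -0.09, with 0.08 without library 34 and -0.23 without library 10. Within runs they gave 0.07, -0.10 and -0.18. Mki67, the proliferation marker, had 11278, 15015 and 12632 with blebbistatin and 11593, 11342 and 12615 with Y27, with an overlap and a 95% interval from -0.43 to 0.18. Cholesterol synthesis genes had a median of 0.06 (0.15 without library 34), ribosomal proteins 0.06 and the respiratory chain 0.04, and the last 2 lists were at -0.02 and -0.01 without library 36. Among genes of the LINC complex and lamina, Syne2, a nesprin that spans the outer nuclear membrane, was lower with Y27, from 2481, 3069 and 2769 to 2305, 1998 and 1976, without overlap and at -0.40 ± 0.11 (adjusted p = 0.804). Lmna, the lamin A gene, differed by 0.18 ± 0.20.

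Each run could also be read against the other 2. Among genes of at least median signal that differed by more than 0.3 on the log2 scale, in the same direction, in the first 2 runs, 73 of 95 (76.8%) were again higher with Y27 in the third, where 43.5% of all such genes were higher. Of 54 lower in the first 2 runs, 44 (81.5%) were lower in the third, where 56.5% of all were. The third run holds library 34, read here as blebbistatin. The same was not done with it read as Y27, so these counts do not settle its label. Each run is 1 pair of libraries, so its genes are not independent repeats. With the second run held out, 47 of 47 were again higher (47.4% of all genes) and 45 of 49 lower (52.6% of all genes). With the first held out, 200 of 245 (81.6%) were higher, against 57.8% of all genes, and 191 of 260 (73.5%) lower, against 42.2%. The size was kept less well than the direction. In the held-out run the median log2 difference of the higher and lower sets was 0.22 and -0.35 for the third run. It was 0.79 and -0.34 for the second, and only 0.13 and -0.065 for the first.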

How the data were processed

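Messenger RNA was sequenced as read pairs in 18 libraries of NIH 3T3 cells, of which 6 were compared here. The authors aligned the reads with TopHat2 2.0, naming mm9, filtered them in AvadisNGS and deposited 1 normalized signal per gene and library (trimmed mean of M-values, values under 1 set to 1). The signal is not whole reads, so no count test was used. Gene positions in the table overlapped genes of the same name on GRCm38 for 99.9% of 20091 symbols. How reads shared by similar or overlapping genes were counted, and whether strand was used, is not given in the sources used here.

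From the deposited signal, log2(value + 1) was fitted with limma (version 3.58.1, R 4.3.3), whose prior variance followed the mean, and tests were two-sided. Of 22019 genes, the 16021 above 1 in 3 or more of the 18 libraries were tested. Calls needed a 2-fold difference and an adjusted p under 0.05 by the Benjamini-Hochberg method. For 1 gene in 6 libraries, the smallest p of an exact permutation test is 0.1. The study names z-scores without a formula, and a z-test of proportions on summed signals was run as an alternative. The scripts were tested on simulated data.

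Libraries were paired by runs of serial numbers because the deviations of all 3 pairs correlated above 0.1. The column numbered 35 was used for library 34 because its heading equals a label of that library alone. The inhibitor comparison, its members and the gene lists were chosen with earlier results of these data known. Named genes were, in each direction, the 10 of smallest p among genes of at least median signal whose groups do not overlap, the myosin II, Rock and RhoA-family genes, and in each list up to 4 genes of smallest p and 3 of highest signal. Any other gene was named with its values already seen. Some genes are not reported here. All columns of values were used. The microRNA libraries and the other groups were not analysed here, apart from the filter, a fit of all 18 libraries and the untreated values.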

Additional observations from a re-analysis of the deposited data

How the results depend on the processing

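No gene was called at an adjusted p under 0.05 and 2-fold in the 6 fits that left out 1 library each, with quantile normalization, another pseudocount, a robust prior, all 18 libraries in 1 fit, the adjusted p alone or the run as a replicate block (0 genes, without the run of libraries 34 and 36 also 0). It was 1 gene with no filter, 1 without the trend, 1 with array weights, 3 with library 34 counted with Y27 and 289 by the z-test. The block with a mean of at least 10, added after the data were seen, gave 11, and 6, 4 and 33 with runs 10 and 12, 22 and 24, or 34 and 36 left out, or 47 by adjusted p alone. Genes at an unadjusted p under 0.05 numbered 909, and 435 in the fit of 18 libraries, 595 with a mean of at least 10, 1451 with the block, 1809 with both, 2025 with both without libraries 10 and 12, and 2112 with array weights. Leaving out 1 library gave 554 (without library 22) to 1428 (without library 12). Genes 2-fold apart numbered 311, and 137 with a mean of at least 10, 53 and 572 with a pseudocount of 8 or 0.1, 494 with array weights, and 402 to 529 with 1 library left out, the highest without library 10. The causes were not tested. A filter changes the number of genes and also the set from which limma takes its prior variance. List medians moved by more than the spread between libraries under 20 alternatives and stayed within it under 785. Differences of single named genes moved under 39, passed the call limits under 32 and stayed under 1735, and none that was called reversed. Low signals rest on few read pairs, and library 34 keeps its conflicting labels.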

Other observations

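Several genes had large differences that did not pass the test, and their signals varied between runs. They are named after their values were seen. Klk14 and Klk8 encode secreted kallikrein proteases. Klk14 had 37, 25 and 282 in blebbistatin libraries 10, 22 and 34 and 62.6, 422 and 565 in Y27 libraries 12, 24 and 36, and was higher with Y27 in every run, at a log2 difference of 1.92 ± 1.29 (SE). Klk8 had 12.9, 14.9 and 141 with blebbistatin and 25.5, 192 and 281 with Y27, in the same order within each run. Both genes were highest in the third run of either group, so the groups overlapped. Igf2, the fetal insulin-like growth factor, had 71.5, 52.4 and 6.64 with blebbistatin and 253, 202 and 12.9 with Y27, and C3, the central complement component, had 64.2, 18.1 and 2.21 and 129, 68.2 and 8.6. These 2 genes were highest in the first run and lowest in the third, and each Y27 library exceeded the blebbistatin library of its run.

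The largest difference at a signal above 100 belonged to Gm9747. It was listed at the lowest value of 1 in libraries 10, 22, 34, 12 and 24 and at 1424 in library 36, and among untreated libraries at 1229 in library 32 and at 1 in libraries 8 and 20. Rsc1a1 was at 1 in libraries 10, 22 and 12, at 459 in library 34, 351 in library 24 and 359 in library 36. Both genes were thus at the lowest value in some libraries of a group and far above it in others.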
